A study of Homo sapiens with 6 samples.

Results

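Expression of 9 genes of MHC class I antigen presentation, HLA-B, HLA-C, HLA-E, B2M, TAP1, TAP2, TAPBP, PSMB8 and PSMB9, was examined in MDA-MB231 cells that carried a control shRNA (shCTL, n = 3 libraries) or an shRNA to Ror1 (shRor1, n = 3 libraries). The genes were taken by symbol, each through its 1 Ensembl identifier on the primary assembly, and were 9 of 57445 genes in the table and 9 of the 16554 that passed the expression filter. MDA-MB231 is a triple-negative breast cancer cell line. Both groups carried a pGIPZ lentiviral vector, applied at a multiplicity of infection of 5, were grown in medium with 10% serum and were selected with 2 µg/ml puromycin. The sample labels call the control vector empty while the study describes a non-silencing shRNA, and the control columns are headed with the word DMSO as well, for which no treatment is described. All libraries came from 1 cell line, and whether the libraries of a group came from separate cultures is not stated, so p-values measure the spread between these libraries only. The columns carry no replicate number, and libraries are named here by their order in the table, which does not pair a library of one group with a library of the other. Values are TPM (transcripts scaled to a fixed total per library), a share of the library corrected for gene length, so that levels can be compared between genes.

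Class I molecules show peptides from inside the cell to CD8 T cells. Proteins are cut by the proteasome, and in cells exposed to interferon the subunits PSMB8 and PSMB9 replace their standard counterparts in the immunoproteasome. The transporter TAP1-TAP2 carries peptides into the endoplasmic reticulum, where tapasin (TAPBP) holds the empty molecule beside the transporter. There the heavy chain (HLA-B, HLA-C or the non-classical HLA-E) pairs with the light chain beta-2-microglobulin (B2M). Interferon gamma, acting in part through IRF1, and the transactivator NLRC5 are known to raise these genes together, and loss of B2M or of the transporter is a known route by which tumor cells escape T cells.

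Of the genes 8 lie on chromosome 6 in the MHC, and B2M lies on chromosome 15 (GRCh37, 45003556 to 45011049, plus strand). TAP2, PSMB8, TAP1 and PSMB9 form a cluster of 34437 bases, measured over their canonical transcripts in GENCODE 44 mapped to GRCh37. Within it TAP1 (32812986 to 32821593, minus strand) and PSMB9 (canonical transcript 32821969 to 32827628, plus strand) are transcribed away from each other, with start sites 488 bases apart. The sequences before the start of 5 members are shown because these genes hold the features described further on. HLA-B and HLA-C had closely similar windows, and B2M had the largest positive difference. The differences of the transporter genes TAP1 and TAP2 had opposite signs. None of these differences passed the test. The sequences shown are the 250 bases before the annotated start in RefSeq (build GRCh38.p14, coordinates of that build). They are in lower case with motif matches in capitals.
HLA-B (chr6:31357180-31357429, minus strand): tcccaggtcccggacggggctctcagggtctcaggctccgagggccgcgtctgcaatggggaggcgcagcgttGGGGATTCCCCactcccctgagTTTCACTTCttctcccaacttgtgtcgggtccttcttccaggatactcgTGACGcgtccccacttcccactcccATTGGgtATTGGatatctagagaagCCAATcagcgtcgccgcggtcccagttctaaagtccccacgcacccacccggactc
HLA-C (chr6:31272093-31272342, minus strand): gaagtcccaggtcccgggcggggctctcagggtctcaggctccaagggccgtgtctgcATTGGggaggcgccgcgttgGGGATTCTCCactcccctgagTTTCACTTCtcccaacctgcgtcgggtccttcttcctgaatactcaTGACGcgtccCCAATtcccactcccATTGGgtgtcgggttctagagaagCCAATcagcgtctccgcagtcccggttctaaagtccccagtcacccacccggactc
B2M (chr15:44711267-44711516, plus strand): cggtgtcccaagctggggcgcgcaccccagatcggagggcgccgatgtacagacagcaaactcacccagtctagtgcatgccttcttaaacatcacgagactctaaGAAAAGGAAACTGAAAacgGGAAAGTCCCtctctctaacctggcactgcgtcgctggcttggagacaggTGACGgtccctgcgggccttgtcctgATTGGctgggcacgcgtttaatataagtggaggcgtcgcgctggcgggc
TAP1 (chr6:32853705-32853954, minus strand): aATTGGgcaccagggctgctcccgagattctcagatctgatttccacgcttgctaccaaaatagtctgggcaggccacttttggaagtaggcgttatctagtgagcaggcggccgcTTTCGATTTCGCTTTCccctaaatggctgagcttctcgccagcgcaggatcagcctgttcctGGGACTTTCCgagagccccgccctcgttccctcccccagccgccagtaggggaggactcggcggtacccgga
TAP2 (chr6:32838740-32838989, minus strand): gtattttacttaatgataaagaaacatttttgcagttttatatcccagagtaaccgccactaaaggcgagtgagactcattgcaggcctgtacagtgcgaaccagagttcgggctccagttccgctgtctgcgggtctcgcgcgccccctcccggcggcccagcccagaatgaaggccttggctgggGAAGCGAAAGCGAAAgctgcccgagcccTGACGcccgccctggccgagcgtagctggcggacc
The capitals mark 6 motifs searched on both strands, which may overlap each other. They are the interferon-stimulated response element (ISRE, GAAANNGAAA), a shorter IRF element (GAANNGAAA), the gamma-activated site (TTCNNNGAA), the CCAAT box (CCAAT), the CRE half-site (TGACG) and the kappa B consensus. RefSeq windows were found for 8 of the 9 members, all but HLA-E. TAP1 and PSMB8 have 2 windows each, for 2 annotated starts, and counts over members use the first listed window of each gene, while shares over all windows use every window. The ISRE was found before B2M, TAP1, TAP2 and TAPBP (4 of 8), while 3.02% of the 35116 windows of all genes held it. In TAP2 the ISRE lay 58 to 49 bases before the start and overlapped the shorter element. The shorter element was otherwise found before HLA-B and HLA-C, and 6.56% of all windows held it. A kappa B match was present before HLA-B, HLA-C, B2M, TAP1 and TAPBP (5 of 8, against 5.21% of all windows). The CRE half-site was present in 6 of 8 (all windows, 21.22%) and the CCAAT box in 5 of 8 (all windows, 32.01%). The windows of TAP1 and PSMB9 overlap at their far ends, and the CCAAT match counted for each of them is the same site. The gamma-activated site was in 0 of the 8 first windows (all windows, 6.57%) and in the second windows of TAP1 and PSMB8. A match is a description of the letters only. The windows of HLA-B and HLA-C matched after global alignment at 90.4% of their length, and the next closest, B2M and PSMB8, at 60.8%.

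Libraries held 16036 to 16597 genes at 1 TPM or more in shCTL and 16317 to 17033 in shRor1. The epithelial keratins KRT8 and KRT18 and the mesenchymal VIM and CD44 were abundant in every library, at 359.19 TPM or more. Other markers of the same lists were lower. Of the epithelial markers EPCAM had 12.58 to 15.80 TPM, CDH1 at most 1.47, KRT5 at most 0.07 and KRT14 at most 0.17. Of the mesenchymal markers FN1 had 15.59 to 76.86 TPM, ZEB1 23.11 to 26.81 and CDH2 0.14 to 0.23. Leukocyte markers (PTPRC, CD3E, CD14, ITGAM) summed to 0.63 to 0.90 TPM in shCTL and 0.37 to 1.01 TPM in shRor1, with 0 of the 4 passing the filter. ROR1, the target of the shRNA, had 15.42, 13.49 and 20.56 TPM in shCTL and 9.34, 11.93 and 14.85 TPM in shRor1. The groups overlapped, with a log2 fold change of -0.43 (standard error 0.20; limma adjusted p = 0.984), so the lower mean of the target in shRor1 did not pass the test. The study reported a stable Ror1 knockdown in these cells and showed it for the protein by western blot, which these RNA values do not measure.

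The 9 class I genes were expressed in every library at levels from 26.03 TPM (TAP1) to 1958.04 TPM (B2M), and together took 0.214% to 0.236% of the TPM in shCTL and 0.221% to 0.282% in shRor1. In such bulk libraries fewer expressing cells and less RNA per cell cannot be told apart. None of the 9 differed between shRor1 and shCTL at an adjusted p below 0.05 (limma on log2(TPM + 1), Benjamini-Hochberg over the 16554 genes), with values from 0.984 to 0.987, and 0% of all genes were called. At an unadjusted p below 0.05 there were 0 of 9, against 2.85% of all genes. The 3 shRor1 values lay above the 3 shCTL values without overlap for 1 of 9 genes, TAP1 (all genes, 6.48%), and below them for 0 of 9 (all genes, 1.3%). Of the 9 differences 7 were positive and 2 negative, with a median log2 fold change of 0.08 beside 0.05 over all tested genes. Over all tested genes 67% of the differences were positive, a share that was 50.5% with quantile normalization and 50.2% with median ratio scaling, and the members then split into 7 positive and 2 negative and into 5 and 4. The median of the members was then 0.02 with either scaling, and it ran from 0.02 without the first shCTL library to 0.12 without the third shCTL library. The counts depended on the first shRor1 library. With that library left out, B2M also lay above and TAP2 below the controls, and both had an unadjusted p below 0.05 (2 of 9, where 10.4% of all genes did). In that setting 21.6% of all genes lay above and 7.84% below the controls without overlap.

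In shCTL cells B2M was the most abundant of the 9, at 1452 ± 63.0 TPM (SD, n = 3), 7.54-fold above HLA-B and above 99.37% of the tested genes in rank. HLA-B followed with 193 ± 29.9 TPM, HLA-C with 161 ± 18.2, TAP2 with 140 ± 6.55 and HLA-E with 112 ± 7.51 (SD, n = 3 each). Among these 4 the ranges of neighbors overlapped over the 6 libraries, although HLA-B exceeded HLA-C in 6 of 6 libraries. Below them came PSMB8 (80.3 ± 4.78 TPM), TAPBP (54.6 ± 6.05), PSMB9 (34.4 ± 2.83) and TAP1 (26.3 ± 0.28), where the ranges of neighbors did not overlap.

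**Figure D1:**
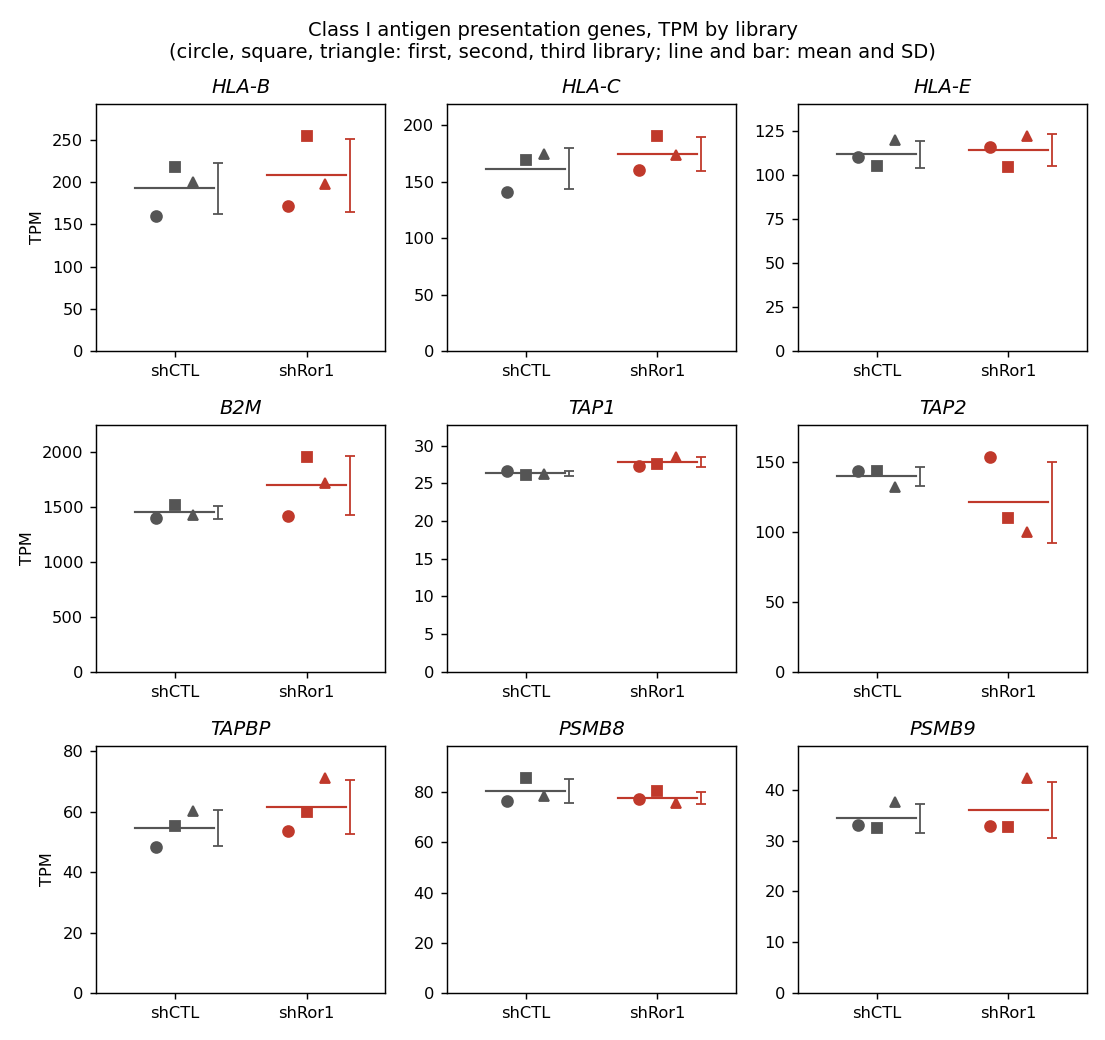
TPM of the 9 class I genes (y axis, from 0) in each shCTL and shRor1 library; symbols give the order of the library in its group, horizontal lines the mean and side bars the SD (n = 3). TAP1 sits in a narrow band from 26.03 to 28.5 TPM without overlap of the groups (they overlap with quantile normalization or median ratio scaling), while TAP2 spans 99.76 to 153.76 TPM within shRor1.

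Among the heavy chains no difference exceeded the spread between libraries. HLA-B, a classical heavy chain (ENSG00000234745.5, chromosome 6, 31321649 to 31334844, minus strand), had 159.72, 217.91 and 200.39 TPM in shCTL and 171.33, 254.81 and 197.70 TPM in shRor1. The lowest value was a control and the highest a knockdown library, and the groups overlapped throughout. On the log2 scale the fold change was 0.10 (standard error 0.17, 95% interval -0.28 to 0.49; limma adjusted p = 0.984), and it turned to -0.05 without the second shRor1 library and to -0.03 without the first shCTL library.
HLA-C, the classical chain that is also a main ligand of killer cell immunoglobulin-like receptors (ENSG00000204525.10, 31236526 to 31239907, minus strand), had 140.66, 168.82 and 174.79 TPM in shCTL and 160.45, 190.48 and 173.77 TPM in shRor1. As for HLA-B, the first shCTL library was the lowest and the second shRor1 library the highest. The log2 fold change was 0.12 (standard error 0.10, interval -0.13 to 0.36), and 0.02 without the first shCTL library.
HLA-E, which presents leader peptides of other class I chains to NK cell receptors (ENSG00000204592.5, 30457286 to 30461971, plus strand), had 110.29, 104.68 and 119.56 TPM in shCTL and 115.75, 104.33 and 122.02 TPM in shRor1. The groups covered nearly the same range, and the second library was the lowest of each. Its log2 fold change of 0.03 (standard error 0.09, interval -0.17 to 0.23) changed sign without the second shCTL library (-0.01), without the third shRor1 library (-0.02) and with median ratio scaling (-0.03).

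RSEM divides reads that map to several genes by an estimate, and class I heavy chains are similar in sequence. Of the 50-base words of the canonical transcript, 2.56% were also found in transcripts of other genes for HLA-B, 6.76% for HLA-C, 6.16% for HLA-E, 1.18% for TAP1 and 7.09% for TAPBP, and 0% for B2M, PSMB8 and PSMB9. These shares hold for the reference alleles, and the alleles of the cell line were not examined. A division of reads between HLA-B and HLA-C leaves their sum as it is, apart from gene length. The sum was 300.38, 386.73 and 375.18 TPM in shCTL and 331.78, 445.29 and 371.47 TPM in shRor1, a log2 difference of 0.11 (exact permutation test, two-sided p = 0.6). With HLA-E, HLA-F, HLA-G and the pseudogenes HLA-H, HLA-J, HLA-K and HLA-L added, the difference was 0.10 (p = 0.4 by the same exact test, in which 3 against 3 libraries cannot go below 0.1).

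B2M, the light chain shared by all class I molecules (ENSG00000166710.13), had 1403.02, 1523.14 and 1430.02 TPM in shCTL and 1422.54, 1958.04 and 1720.38 TPM in shRor1. Both the second and the third shRor1 library exceeded every control and the first lay inside the control range. The mean was 1452 ± 63.0 TPM in shCTL and 1700 ± 268 TPM in shRor1 (SD, n = 3 each), a ratio of 1.17 that did not pass the test. On the log2 scale this was 0.22 (standard error 0.12, interval -0.06 to 0.49; limma adjusted p = 0.984), and 0.34 when the first shRor1 library was left out (limma, unadjusted p = 0.00692, adjusted p = 0.435). It was 0.11 without the second shRor1 library.
Set against the sum of HLA-B, HLA-C and HLA-E in the same library, B2M stood at 3.42, 3.10 and 2.89 in shCTL and at 3.18, 3.56 and 3.49 in shRor1. This ratio does not depend on the scaling of TPM to the library. Again the first shRor1 library lay within the controls and the other two above them, with a log2 difference of 0.12 (exact permutation test, two-sided p = 0.2, adjusted p = 0.7 over the 5 ratios tested).

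Of the transporter subunits TAP1 varied least among the 9 genes and TAP2 varied more than all but HLA-B, by the SD within groups on the log2 scale. TAP1 (ENSG00000168394.9) had 26.59, 26.03 and 26.28 TPM in shCTL and 27.23, 27.59 and 28.50 TPM in shRor1. Every shRor1 library was above every control (two-sided exact permutation p = 0.1, which is the least that 3 against 3 libraries allow). The difference was small, 1.06-fold between the means, with a log2 fold change of 0.08 (standard error 0.07, interval -0.09 to 0.25; limma adjusted p = 0.984). The spread of TAP1 within groups, a pooled SD of 0.03 on the log2 scale, was among the lowest measured, with 0.296% of the tested genes below it, and limma moderates the standard error toward the trend over all genes. With quantile normalization or median ratio scaling the groups overlapped, and the latter left a log2 fold change of 0.02.
TAP2 (ENSG00000204267.9, 32789610 to 32806516, minus strand) had 143.59, 143.63 and 132.27 TPM in shCTL and 153.76, 110.09 and 99.76 TPM in shRor1. The first shRor1 library was the highest of all 6, and the other two were the lowest. On the log2 scale the difference was -0.23 (standard error 0.15, interval -0.58 to 0.12; limma adjusted p = 0.984). With the first shRor1 library left out it was -0.41 (standard error 0.08; limma, unadjusted p = 0.00174, adjusted p = 0.435) and without the third -0.10. The sign was negative under all 12 alternatives, although no filter, no mean-variance trend and summing by symbol leave the fold change as it is.
Part of the TAP2 sequence is shared with an overlapping gene on the same strand, ENSG00000250264, and 35.29% of the 50-base words of the canonical TAP2 transcript were found in transcripts of other genes. ENSG00000250264 had 3.08, 2.42 and 3.15 TPM in shCTL and 3.51, 2.08 and 2.75 TPM in shRor1. It was thus far below TAP2, and was also highest in the first shRor1 library.
The ratio TAP1/TAP2 was 0.185, 0.181 and 0.199 in shCTL and 0.177, 0.251 and 0.286 in shRor1. TAP2 thus stood above TAP1 in all 6 libraries, although the subunits act in equal numbers in the protein. The ratio was highest in the second and the third shRor1 library and lowest in the first (log2 difference 0.30, exact permutation test, two-sided p = 0.4). The difference was 0.50 without the first shRor1 library and 0.16 without the third.

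**Figure D2:**
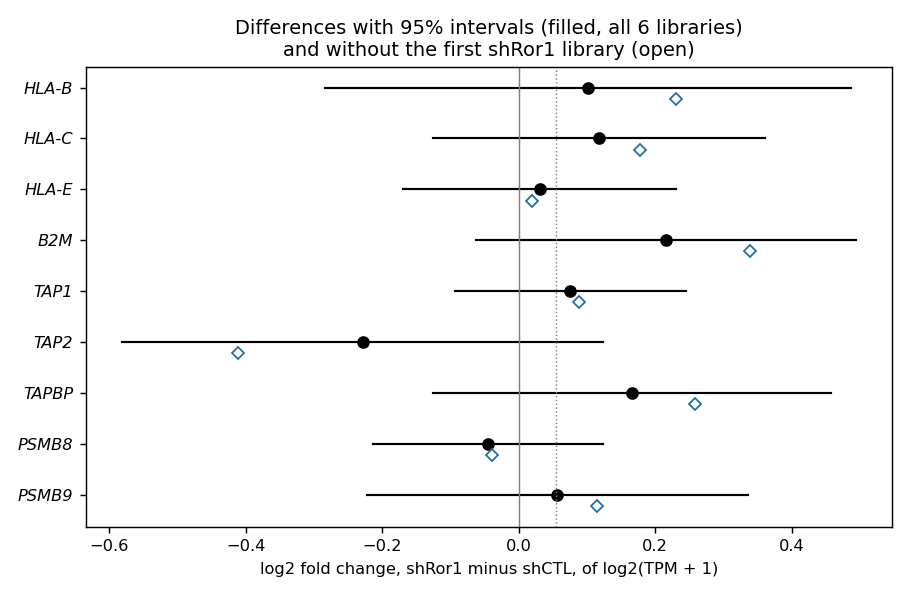
Difference in log2(TPM + 1) between shRor1 and shCTL (x axis) for the 9 genes, with all 6 libraries and its 95% interval (filled circles, lines) and without the first shRor1 library (open diamonds); the dotted line is the median of all tested genes, 0.05. Every interval includes 0, and TAP2 (-0.41) and B2M (0.34) lie farthest from 0 without that library.

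Tapasin (TAPBP, ENSG00000231925.7, 33267471 to 33282061, minus strand) had 48.33, 55.20 and 60.40 TPM in shCTL and 53.71, 59.81 and 71.26 TPM in shRor1. In each group the first library was the lowest and the third the highest. The fold change was 0.17 on the log2 scale (standard error 0.13, interval -0.13 to 0.46; limma adjusted p = 0.984), and it ran from 0.06 without the third to 0.26 with the first shRor1 library left out.
Of the 8 genes listed for the peptide loading complex, all of them tested, 6 had positive and 2 negative differences and 0 passed the test, with a median of 0.12. The split was 7 and 1 with quantile normalization and 6 and 2 with median ratio scaling. The extremes of this list were TAPBP and TAP2. The shRor1 values lay above the controls without overlap for 2 of the 8 (all genes, 6.48%), TAP1 and HSPA5, a general chaperone of the endoplasmic reticulum, whose mean was 349 ± 12.6 TPM in shCTL and 384 ± 26.1 TPM in shRor1 (log2 fold change 0.14, standard error 0.07). With either scaling HSPA5 overlapped as TAP1 did, and it was named after its values were seen. Among 8 peptide-trimming enzymes 6 differences were positive and 2 negative (5 and 3 with either scaling, median 0.08 in the values as deposited), and 0 passed. They ran from -0.10 for the oligopeptidase THOP1 to 0.23 for the aminopeptidase ERAP2. ERAP2 had 5.11 ± 0.35 TPM in shCTL and 6.16 ± 0.49 TPM in shRor1 (SD, n = 3 each). It was the 1 enzyme of the 8 above the controls without overlap (all genes, 6.48%).

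For the immunoproteasome subunits the groups overlapped and no difference passed the test. PSMB8, the inducible chymotrypsin-like subunit (ENSG00000204264.4, 32808494 to 32812456, minus strand), had 76.64, 85.74 and 78.63 TPM in shCTL and 77.18, 80.43 and 75.79 TPM in shRor1. The highest value was a control and the lowest a knockdown library, and the log2 fold change was -0.04 (standard error 0.07, interval -0.21 to 0.12), and 0.003 without the second shCTL library.
PSMB9, the inducible counterpart of PSMB6 (ENSG00000240065.3), had 33.09, 32.52 and 37.69 TPM in shCTL and 32.96, 32.76 and 42.41 TPM in shRor1. In both groups the third library stood apart above the other two, which were nearly equal. The log2 fold change was 0.06 (standard error 0.12, interval -0.22 to 0.34), and it turned to -0.06 without the third shRor1 library and to -0.002 with median ratio scaling.
TAP1, whose start is 488 bases away, was also highest in the third library of shRor1 (28.50 TPM) but not in that of shCTL (26.28 TPM). Exons of PSMB8 and PSMB9 overlap on opposite strands in GENCODE 44, and PSMB8-AS1 overlaps PSMB9 on the same strand. PSMB8-AS1 had 2.04 to 4.23 TPM. The kit marks the strand, but whether RSEM was run with a strand setting is not given in the sources used here.

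Against the standard subunits that they replace, the immunosubunits were minor transcripts. PSMB5 had 339 ± 18.1 TPM in shCTL and 312 ± 25.9 TPM in shRor1, PSMB6 212 ± 14 and 197 ± 18.9, and PSMB7 302 ± 25.8 and 274 ± 35.8 (SD, n = 3 each). The ratio PSMB8/PSMB5 was 0.213, 0.262 and 0.237 in shCTL and 0.226, 0.270 and 0.256 in shRor1. PSMB9/PSMB6 was 0.145, 0.163 and 0.180 in shCTL and 0.151, 0.174 and 0.230 in shRor1. PSMB10/PSMB7, whose inducible subunit is encoded outside the MHC, was 0.062, 0.069 and 0.081 in shCTL and 0.063, 0.074 and 0.083 in shRor1. For each of the 3 ratios the first library was the lowest of its group, and the groups overlapped. The log2 differences were 0.08, 0.17 and 0.05 (exact permutation tests, two-sided p = 0.6, 0.5 and 0.7, adjusted p = 0.7 for each over the 5 ratios). PSMB8/PSMB5 differed by 0.0036 without the first shCTL library, and PSMB9/PSMB6 by 0.00077 without the third shRor1 library.
Of the 6 genes of the immunoproteasome and its activator PA28, 4 differences were positive and 2 negative with a median of 0.01, from -0.09 for PSMB10 to 0.11 for the PA28 subunit PSME1. The split was 3 and 3 with quantile normalization and 1 and 5 with median ratio scaling. Of 14 standard 20S subunits 13 were tested, and 3 differences were positive and 10 negative with a median of -0.06, from -0.15 for PSMB7 to 0.05 for PSMA2. It was 4 and 9 with quantile normalization and 0 and 13 with median ratio scaling. PSMB3 was not matched by identifier and is not analysed here. In neither list did a gene pass the test, at adjusted or unadjusted p below 0.05.

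**Figure D3:**
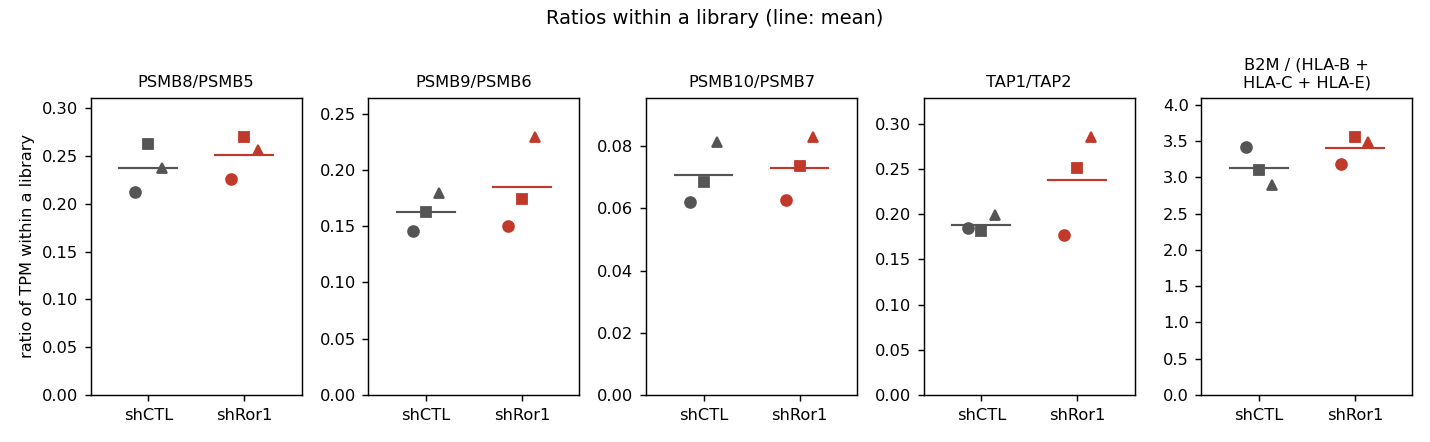
Ratios of TPM within a library (y axis, from 0) for 3 inducible against standard proteasome subunits, TAP1 against TAP2, and B2M against the summed heavy chains, by group, with circle, square and triangle for the libraries in column order and lines for the group means. The first shRor1 library (circle) lies within the control range in 4 panels and below it for TAP1/TAP2 (0.177).

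The regulators of the class I genes showed no difference that passed the test. NLRC5, the class I transactivator, had 7.47, 5.71 and 7.54 TPM in shCTL and 7.60, 6.04 and 8.48 TPM in shRor1, with the second library lowest in both groups (log2 fold change 0.08, standard error 0.16). IRF1, the interferon gamma responsive factor that binds such promoters, had 17.8 ± 1.84 and 17.7 ± 0.83 TPM (SD, n = 3 each). Of 14 transactivator genes 13 were tested, 8 with positive and 5 with negative differences and a median of 0.02, from -0.05 for NFYC to 0.20 for RFXAP, and 0 had an unadjusted p below 0.05. The split was 5 and 8 with quantile normalization and 6 and 7 with median ratio scaling, so the list had no direction that held.
Of 15 genes of interferon gamma signaling 12 were tested, and all 12 differences were positive (67% over all tested genes). Their median was 0.17 and 0 were called. With quantile normalization 10 were positive and 2 negative (all genes, 50.5% positive), and with median ratio scaling 8 and 4 (all genes, 50.2%). IFNGR1, the ligand-binding receptor chain, had 26.35, 25.19 and 24.53 TPM in shCTL and 28.01, 29.59 and 30.20 TPM in shRor1. The groups did not overlap (log2 fold change 0.20, standard error 0.08, limma, unadjusted p = 0.0346, adjusted p = 0.984). IFNGR1 was the 1 gene of the 12 without overlap and the 1 below an unadjusted 0.05. Over all genes 6.48% lay above the controls without overlap and 2.85% were below 0.05. With quantile normalization and median ratio scaling IFNGR1 still did not overlap, but its unadjusted p was 0.101 and 0.122 (limma).
STAT2, IRF9 and GBP2, named after their values were seen, were highest in the third library of each group. GBP2, an interferon-induced GTPase, had 9.61, 8.68 and 17.98 TPM in shCTL and 8.28, 10.88 and 34.33 TPM in shRor1. Of the class I genes PSMB9, TAPBP and HLA-E were also highest in the third library of both groups, HLA-B, B2M, PSMB8 and TAP2 in neither, and TAP2 was lowest there in both groups. The part of this library-to-library variation in the values of PSMB9 and TAPBP was not tested.

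**Figure D4:**
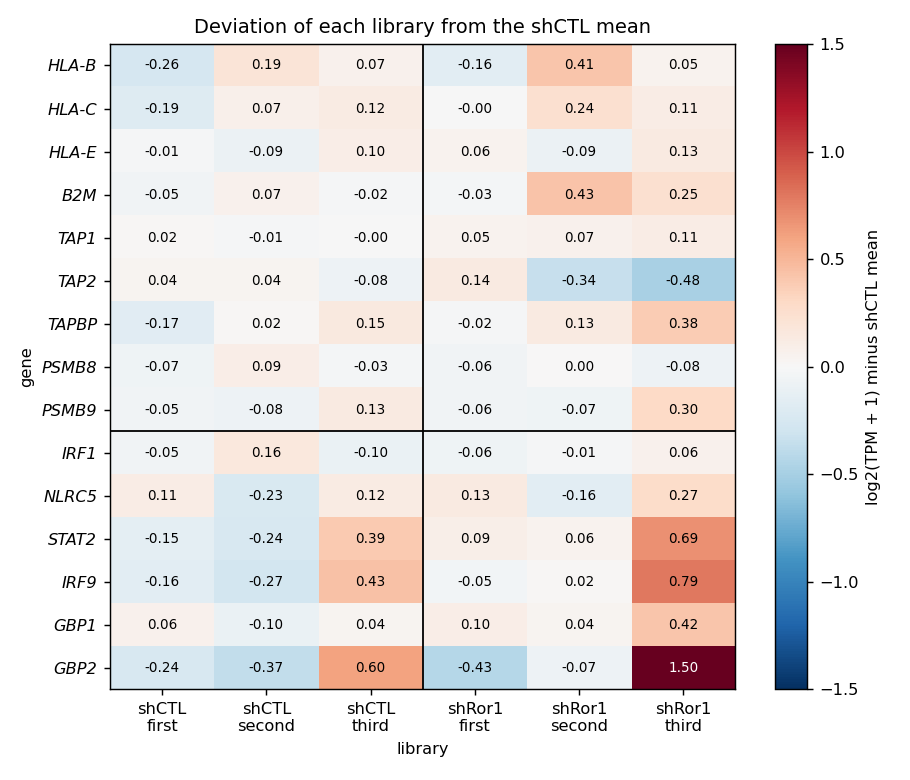
Difference of log2(TPM + 1) in each library (columns) from the mean of the 3 shCTL libraries for the 9 class I genes and 6 regulators or interferon-induced genes (rows), in colour and digits. GBP2 (1.5), IRF9 (0.79) and STAT2 (0.69) are highest in the third shRor1 library, where TAP1 differs by 0.11 and TAP2 by -0.48.

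The first shRor1 library was the one nearest to the controls for the class I genes, with a median absolute difference from the shCTL mean of 0.06 on the log2 scale over the 9 genes, against 0.13 in the second and 0.13 in the third. Over all tested genes these medians were 0.09, 0.14 and 0.18. Among the shRor1 libraries ROR1 itself was lowest in this first library (9.34 TPM) and highest in the third (14.85 TPM). Whether the class I values go with the level of ROR1 was not tested.
The genes whose profile over the 6 libraries was most like the mean z-score of the 9 class I genes were DAB2IP, EPOR, ZNF250, ACBD4 and ABR, with Pearson's r from 0.984 to 0.997 (n = 6 libraries, a description without a test). With so few libraries high values are common, and 422 of the 12122 protein-coding genes compared had r above 0.9. None of the 5 passed the test between groups (adjusted p = 0.984 for each from limma).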

How the data were processed

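Total RNA (1000 ng) was prepared with a strand-specific kit and sequenced as single reads of 50 bases. Per the study and the submitters' processing notes, the authors mapped reads to GRCh37 with STAR using Ensembl 73 and estimated gene abundances with RSEM 1.2.5. The deposited values are TPM with 2 decimals, 1 column per library, although the table is named for expected counts. TPM keeps no depth, and the mapped reads that the study lists per library cannot be tied to single columns. No counting interval is given, and the count model of the study (edgeR) could not be applied.

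The filter kept genes that reached 1 TPM in 3 or more of the libraries. Differences of shRor1 from shCTL were tested on log2(TPM + 1) with limma 3.58.1 in R 4.3.3 (empirical Bayes with a mean-variance trend, Benjamini-Hochberg adjustment over all kept genes, threshold 0.05). Fold changes on this scale understate those of genes with few TPM. Ratios within a library and sums were tested with an exact two-sided permutation test. The fit was checked on simulated data with independent noise for each gene. The nonzero changes added there were larger than those of the members, so power for such small differences was not checked. Symbols came from a gene name table (55022 of 57445 identifiers matched), loci and transcripts from GENCODE 44 on GRCh37. Class I heavy chain genes other than those named were not analysed here.

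The members and lists were chosen with earlier results of these data known. Genes named are the 9 members, PSMB5, PSMB6, PSMB7, NLRC5, IRF1 and ROR1, of each list those at an unadjusted p below 0.05 or otherwise those with the largest and the smallest log2 fold change, and the 5 genes of most similar profile. Some items of these lists are not reported here. Alternatives were no filter, a pseudocount of 0.1, quantile normalization, median ratio scaling, no mean-variance trend, values summed by symbol, and each library left out in turn. The heavy chain sums and the signs of the lists under other scalings were added after seeing the data.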

Additional observations from a re-analysis of the deposited data

How the results depend on the processing

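The number of class I genes called was 0 of 9 under all 12 alternatives, with adjusted p from 0.435 to 1.00. The number at an unadjusted p below 0.05 ran from 0 to 2 with each library left out, the 2 without the first shRor1 library, and was 0 otherwise. The number without overlap was 0 with quantile normalization (all genes, 3.27% above and 3.2% below the controls). With median ratio scaling it was also 0 (all genes, 3.65% and 3.12%). It ran from 1 to 3 with libraries left out, again 3 without the first shRor1 library. In that setting 21.6% of all genes lay above and 7.84% below the controls. Without any other library it was 1, TAP1, where 9.64% to 18.6% of all genes lay above the controls. The cause was not tested. Of the 81 tested genes of the lists, 2 were below an unadjusted 0.05 (2.85% of all genes were), 0 with quantile normalization, 0 with median ratio scaling, and from 0 to 12 with libraries left out (12 without the first shRor1 library, where 10.4% of all genes were below). Of the 9 genes 5 kept their sign under all 12 alternatives, namely HLA-C, B2M, TAP1, TAP2 and TAPBP. Leaving out the filter or the mean-variance trend, or summing by symbol, left each member's fold change as it was. Those alternatives could not change a sign. With median ratio scaling, which moves the median of all genes from 0.05 to 0.00, the log2 fold change was -0.029 for HLA-E and -0.0025 for PSMB9. With libraries left out it ran from -0.054 to 0.231 for HLA-B, -0.019 to 0.093 for HLA-E, -0.077 to 0.0027 for PSMB8 and -0.063 to 0.122 for PSMB9, and the log2 difference of PSMB10/PSMB7 from -0.038 to 0.159. The other 4 ratios kept their sign, from 0.0036 to 0.154 for PSMB8/PSMB5, 0.00077 to 0.300 for PSMB9/PSMB6, 0.160 to 0.501 for TAP1/TAP2 and 0.066 to 0.186 for B2M over the heavy chains. B2M over the heavy chains was lowest without the third and highest without the first shCTL library. No paired analysis was possible because library columns carry no replicate number. TPM keeps no read depth, and the mapped reads that the study lists per library cannot be tied to single columns. Counting error was not estimated and was not told apart from differences between libraries.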

Other observations

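Most genes of class II antigen presentation were below the expression filter in these cells. Of 10 class II genes 3 passed the filter. HLA-DRA had 0.43 to 1.25 TPM and HLA-DRB1 0.05 to 0.24 TPM across the 6 libraries, both named after their values were seen. The invariant chain CD74 had 12.7 ± 0.59 TPM in shCTL and 11.5 ± 1.73 TPM in shRor1 (SD, n = 3 each), and the peptide exchange factor subunit HLA-DMA 4.82 ± 1.08 and 5.91 ± 2.45 TPM. Their log2 fold changes were -0.15 and 0.21, the lowest and the highest of the 3, and neither passed the test (adjusted p = 0.984 from limma).

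Of 12 genes listed as NK and T cell ligands, a list that also held CD47, all were tested. Their differences were positive for 8 and negative for 4, with a median of 0.03 and 0 called. With either scaling 5 were positive and 7 negative. CD47, the signal that restrains phagocytosis by macrophages, had 37.52, 39.02 and 38.38 TPM in shCTL and 39.40, 50.15 and 51.75 TPM in shRor1. The groups did not overlap (log2 fold change 0.28, standard error 0.11, limma, unadjusted p = 0.0362, adjusted p = 0.984), and the first shRor1 library was again the one nearest to the controls. CD47 was the 1 gene of the 12 without overlap and the 1 below an unadjusted 0.05. Over all genes 6.48% lay above the controls without overlap and 2.85% were below 0.05. With quantile normalization and median ratio scaling the groups overlapped.

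The non-classical heavy chain HLA-G had the largest difference of its list, with 15.91, 20.26 and 17.29 TPM in shCTL and 18.78, 23.83 and 21.62 TPM in shRor1 (log2 fold change 0.25, standard error 0.12, adjusted p = 0.984 from limma). In all 6 genes of the heavy chain and light chain list the difference was positive (5 of 6 with median ratio scaling). Over all tested genes 67% of the differences were positive, and 50.2% with that scaling. The median of the list was 0.11 beside 0.05 over all tested genes, and 0 passed the test.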
